A study of Mus musculus with 16 samples.

Results

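The RNA levels of 8 genes driven by the transcription factor SREBP2 were examined in Paneth cells that had been purified from the small intestine of mice. They were Hmgcs1, Idi1, Fdps, Fdft1, Sqle, Cyp51, Insig1 and Srebf2, chosen by name out of 55414 genes in the deposited count table. No rule on measured values was used, but earlier results of these data were known when they were chosen. They hold 6 enzymes of synthesis and 2 regulators, and no receptor for cholesterol uptake. All 8 passed the filter on low counts, as did 11809 genes in all. A first injection of DEX, or of PBS as its vehicle, was followed after 1 h by a second of tumour necrosis factor (TNF) or PBS, and 3 h after that the mice were sampled. The 16 libraries form 4 groups of 4 biological replicates, named by the injections in their order: DEX+TNF, DEX+PBS, PBS+TNF and, as the controls, PBS+PBS. The animals were C57BL/6J mice with no further allele named, and no group was left without injections. DEX usually stands for dexamethasone, a synthetic glucocorticoid, but neither labels nor methods write the name in full. The sample titles write the last group as DEX+TNFS, and its treatment label gives DEX and TNF.

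Cells make cholesterol from acetyl-CoA through the mevalonate pathway. When membrane cholesterol is low, the membrane-bound precursor of SREBP2 travels with its escort SCAP from the endoplasmic reticulum to the Golgi, is cut there, and its free part enters the nucleus to switch on the genes of synthesis and uptake. When cholesterol is plentiful, INSIG proteins hold SCAP back. In the intestine, epithelial cells both make cholesterol and take it up from the gut.

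Libraries held 7286307 to 15832111 counts. Alpha-defensin (Defa) genes, the products that define Paneth cells, took 32.2% to 59.3% of them, which left the 8 cholesterol genes with 0.0101% to 0.0528% of a library. Normalised levels in CPM (counts scaled to a common library total) were scaled by TMM factors that ran from 0.418 to 1.502. Stromal markers summed to at most 0.809 CPM and red blood cell markers to at most 0.648 CPM in any library. The summed immune cell markers reached 218 CPM, with a lowest value of 8.995 CPM, and the summed enteroendocrine markers ran from 0 to 15.9 CPM. Stem cell markers summed to 252 to 1219 CPM and markers of cycling cells to 18.4 to 139 CPM, both highest in DEX+TNF replicate 4. Goblet cell markers summed to 2263 to 7428 CPM, and the 5 markers of this list had counts in every group. Summed enterocyte markers reached 254 CPM in PBS+PBS replicate 4 and 313 CPM in DEX+TNF replicate 4, against 4.27 to 56.3 CPM elsewhere, and summed tuft cell markers reached 423 CPM in DEX+TNF replicate 4. In bulk samples, fewer cells of a type and less RNA per cell cannot be told apart.

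The response to the injections was read from genes known to follow them. Nfkbia, the NF-kB inhibitor that TNF induces, was at 15.6 to 27.3 CPM in all 8 libraries without TNF and at 277, 337, 311 and 308 CPM in PBS+TNF. In DEX+TNF it was at 330.0 and 382 CPM in replicates 1 and 2 but at 28.3 and 41.0 CPM in replicates 3 and 4. Tnfaip3, another NF-kB target, showed the same split, with 115 and 109.6 CPM in the first pair and 2.25 and 7.38 CPM in the second. The libraries labelled DEX+TNF replicates 3 and 4 thus went against the TNF part of their label, and the named results of the 8 genes that rest on them are given with and without them. The pair was picked by these TNF-induced genes in the same data. TNF comparisons without it therefore rest on libraries selected for a TNF response. Sgk1, a glucocorticoid-induced kinase, was at 1.11 to 7.94 CPM in the 8 libraries whose first injection was PBS and at 17.6 to 115 CPM in the 8 whose first injection was DEX. On the average over both second injections, Sgk1 was higher after DEX by 3.41 (SE 0.35, edgeR adjusted p = 0.0002043) on the log2 scale, Fkbp5 by 1.96 (SE 0.31, adjusted p = 0.01444) and Tsc22d3 by 1.44 (SE 0.27, adjusted p = 0.03838). The call of Sgk1 held in 25 of 25 alternatives and that of Fkbp5 in 23. That of Tsc22d3 held in 8 only, was lost in 13 of the 16 fits that left out 1 library, with adjusted p up to 0.1209, and was lost without DEX+TNF replicates 3 and 4 (0.88, adjusted p = 0.06068).

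The genes lie on chromosomes 3, 5, 13, 14 and 15 (GRCm39). Hmgcs1 spans chr13:120151915-120170470 and Idi1 chr13:8935537-8942487, both on the plus strand. Sqle spans chr15:59186869-59203043 and Srebf2 chr15:82031382-82093201, also on the plus strand, as is Insig1 at chr5:28276315-28283668. On the minus strand are Cyp51 at chr5:4123416-4154751, Fdft1 at chr14:63382189-63417027 and Fdps at chr3:89000888-89019213. All are annotated as protein-coding.

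Some of these loci share sequence with others, which bears on how reads were counted. When the canonical transcripts were aligned to GRCm39, Fdps matched 6 other loci at 88.6% to 98.7% identity, each over 89.1% to 91.3% of the transcript and each annotated as a gene of its own. Those 6 loci held 28 counts in all libraries together, and Fdps itself held 346. Idi1 matched 2 other loci at 95.2% and 99.3% identity and Fdft1 matched 1 at 97.0%, while the single other match of Insig1 was at 78.2%. Hmgcs1, Sqle, Cyp51 and Srebf2 had no second match. How reads with several matches were treated is not given in the sources used here, so the levels of Fdps and Idi1 are uncertain. Cyp51 overlaps Akap9, Fdft1 overlaps Ctsb and Sqle overlaps Washc5, each on the opposite strand, and the library kit marks strand but the counting setting is not given.

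The promoters are shown because SREBP2 acts through short elements near the start site. Whether these elements bear on the levels in these libraries was not tested. In the 250 bases before and 50 bases after the canonical start (GRCm39), both strands were searched for the sterol regulatory element TCACNCCAC, its shorter core CACNCCA, the NF-Y box CCAAT and the GC box GGGCGG. The element was found in 1 of the 8, Hmgcs1, and in 1.34% of 21757 protein-coding promoters. The core, which lies within the element, was found in 4 of the 8 and in 18.4% of all promoters. The 4 stretches that hold it, taken from the genome upstream of the start and written 5′ to 3′ on the gene's strand, are these, with the element of Hmgcs1 and the core of the others in capitals (chr13:120151732-120151783, chr15:59186659-59186715, chr5:28276132-28276188 and chr15:82031284-82031340, all plus strand).
Hmgcs1: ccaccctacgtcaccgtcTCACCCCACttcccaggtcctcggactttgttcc
Sqle: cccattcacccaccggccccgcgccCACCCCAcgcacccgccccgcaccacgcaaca
Insig1: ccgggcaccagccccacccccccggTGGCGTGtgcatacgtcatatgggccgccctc
Srebf2: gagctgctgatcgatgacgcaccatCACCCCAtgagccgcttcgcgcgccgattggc
In Insig1 the core lies on the opposite strand, so it reads as its reverse complement. A CCAAT box was found in 8 of 8 of these promoters, against 39.9% of all promoters and 10 of the 15 other cholesterol synthesis enzymes. A GC box was found in 6 of the 8, in 42.5% of all promoters and in 12 of the 15 other synthesis enzymes. Over the 7 other lists of sterol genes, used further on, shares ran from 16.7% to 75% for the CCAAT box. They ran from 16.7% to 88.9% for the GC box, from 0% to 27.3% for the element and from 0% to 36.4% for the core. All of these are matches of letters and not measured binding sites.

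Across the 16 libraries, the level per kilobase of exon ran from Hmgcs1 at 14.5 ± 5.27 CPM per kb (SD, n = 16) through Srebf2 at 11.7 ± 3.31, Insig1 at 8.38 ± 2.42, Cyp51 at 6.20 ± 1.60, Fdft1 at 4.40 ± 1.42 and Sqle at 2.48 ± 0.516 to Idi1 at 1.06 ± 0.614 and Fdps at 0.319 ± 0.137. The length was that of all annotated exons of a gene together, from 3549 bases for Idi1 to 9342 for Srebf2. It can exceed the length of the RNA present, so that part of this order can reflect annotation. Neighbours in this order mostly overlapped from library to library. Hmgcs1 was above Srebf2 in 10 of 16 libraries, Srebf2 above Insig1 in 12, Insig1 above Cyp51 in 12, Cyp51 above Fdft1 in 13, Fdft1 above Sqle in 14 and Sqle above Idi1 in 14. Idi1 was above Fdps in 16 of 16 libraries. Fdps had 5 to 44 counts per library and Idi1 had 25 to 85, so that their values are the least precise, while Srebf2 had 476 to 3134.

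TNF alone was compared with PBS alone first (PBS+TNF against PBS+PBS). At an edgeR adjusted p under 0.05, 1476 genes were called, 12.5% of those tested, and 0 of the 8 cholesterol genes were among them, although Insig1 and Srebf2 had an unadjusted p under 0.05. DESeq2 called 2061 genes and 1 of the 8, Insig1. The 8 fitted log2 fold changes ran from -0.69 for Insig1 to 0.59 for Srebf2, with 4 above 0 and 4 below, and their median was -0.08, against -0.03 over all genes tested. Of the called genes, 57.2% were higher with TNF. With upper-quartile scaling the share was 46.3%, and the median over all genes moved to -0.15. The groups did not overlap for 19.5% of all genes tested and for 1 of the 8, Insig1.

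Insig1, which encodes the protein that holds SCAP and SREBP2 in the endoplasmic reticulum and is itself an SREBP target, was the gene whose TNF libraries lay lowest against the rest. It was at 45.1, 40.03, 44.4 and 57.9 CPM in PBS+PBS and at 24.5, 26.5, 31.1 and 33.3 CPM in PBS+TNF. In DEX+PBS it was at 64.4, 42.0, 44.1 and 44.0 CPM, and in DEX+TNF at 32.2, 35.3, 59.6 and 30.1 CPM. Every PBS+TNF library was thus below every library without TNF, and 7 of the 8 TNF libraries were below all 8 others. The exception was DEX+TNF replicate 3, one of the pair without the Nfkbia response, while replicate 4 of that pair was low. The log2 difference was -0.69 (SE 0.23, adjusted p = 0.06114) for PBS+TNF against PBS+PBS and -0.31 (SE 0.23, adjusted p = 0.732) for DEX+TNF against DEX+PBS. The latter was -0.52 (SE 0.24, adjusted p = 0.1766) without DEX+TNF replicates 3 and 4. The former was not called in 15 of the 16 fits that left out 1 library, with adjusted p up to 0.1402. It was called only in that without DEX+TNF replicate 3, a library of neither group compared (adjusted p = 0.02337).

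Averaged over both first injections, TNF gave 1766 called genes, or 15% of those tested, and of these 681, or 5.77% of those tested, were lower. Among the 8 cholesterol genes Insig1 alone was called, and fell by 0.50 (SE 0.16, adjusted p = 0.04907). Higher were 61.4% of the called genes, and 49.8% under upper-quartile scaling. The call of Insig1 lay at the threshold. Of the 16 fits that left out 1 library it was kept only without DEX+TNF replicate 3 (-0.64, adjusted p = 0.004629), and in the other 15 the adjusted p reached 0.1154. It was also lost under median-of-ratios scaling, no low-count filter or a replicate block and without PBS+PBS replicate 4 and DEX+PBS replicate 1 together, and it was kept with adjusted p = 0.02317 by DESeq2. Its direction was the same in all 25 alternatives. Without DEX+TNF replicates 3 and 4 the difference was -0.61 (SE 0.15, adjusted p = 0.00711), with DEX+TNF then represented by 2 libraries.

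Hmgcs1, the HMG-CoA synthase near the start of the pathway, was at 73.9, 83.0, 60.4 and 139 CPM in PBS+PBS and at 42.6, 56.5, 66.6 and 70.9 CPM in PBS+TNF. It was at 136, 62.0, 92.5 and 92.5 CPM in DEX+PBS and at 67.6, 48.3, 77.4 and 54.9 CPM in DEX+TNF. The high values of PBS+PBS replicate 4 and DEX+PBS replicate 1 stood apart, and the TNF libraries, up to 77.4 CPM, overlapped the lower values of the others, with 4 of the 8 below all of them. The log2 difference for TNF averaged over both first injections was -0.61 (SE 0.20, adjusted p = 0.05165), just outside the threshold. DESeq2 called it, with adjusted p = 0.02305, as did the fit without DEX+TNF replicates 3 and 4 (-0.65, SE 0.22, adjusted p = 0.04095). So did the fits without PBS+PBS replicate 3, DEX+PBS replicate 2 or DEX+TNF replicate 3, with adjusted p of 0.03589, 0.03369 and 0.03457. Without PBS+PBS replicate 4 and DEX+PBS replicate 1, it was -0.36 with adjusted p = 0.1818.

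Fdft1, squalene synthase, which commits the pathway to sterols, was at 16.9, 24.3, 18.8 and 31.9 CPM in PBS+PBS and at 16.6, 16.0, 18.6 and 24.5 CPM in PBS+TNF. It was at 38.0, 22.5, 18.8 and 23.6 CPM in DEX+PBS and at 12.2, 11.4, 19.7 and 22.6 CPM in DEX+TNF. The lowest of all 16 were DEX+TNF replicates 1 and 2, and 4 of the 8 TNF libraries lay below all 8 without TNF. DEX+TNF against DEX+PBS gave -0.64 (SE 0.28, adjusted p = 0.4284), and -1.12 (SE 0.32, adjusted p = 0.03344) without DEX+TNF replicates 3 and 4. The average TNF difference was -0.46 (SE 0.20, adjusted p = 0.1416), and -0.69 (SE 0.20, adjusted p = 0.01694) without that pair. The fit without the pair, which leaves 2 DEX+TNF libraries, was the only alternative that called Fdft1. That was 1 of 26 alternatives for DEX+TNF against DEX+PBS and 1 of 25 for the average. Of the 16 fits that left out 1 library, 0 called it in either comparison.

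Srebf2, which encodes SREBP2 itself, lay on the other side of 0. It was at 91.4, 106, 97.8 and 59.8 CPM in PBS+PBS and at 95.2, 162, 122 and 155 CPM in PBS+TNF. It was at 100.5, 96.5, 82.5 and 114 CPM in DEX+PBS and at 143, 159.5, 72.8 and 95.2 CPM in DEX+TNF. Above all 8 libraries without TNF were 5 of the 8 TNF libraries, and the remaining TNF libraries, among them DEX+TNF replicates 3 and 4, overlapped them. PBS+TNF against PBS+PBS gave 0.59 (SE 0.27, adjusted p = 0.1633), and the average TNF difference was 0.43 (SE 0.19, adjusted p = 0.1465). Without DEX+TNF replicates 3 and 4, which leaves 2 DEX+TNF libraries, the average was 0.61 (SE 0.17, adjusted p = 0.01406). This was the only 1 of 25 alternatives that called Srebf2 for the average, and 0 of the 16 fits that left out 1 library did.

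**Figure D1:**
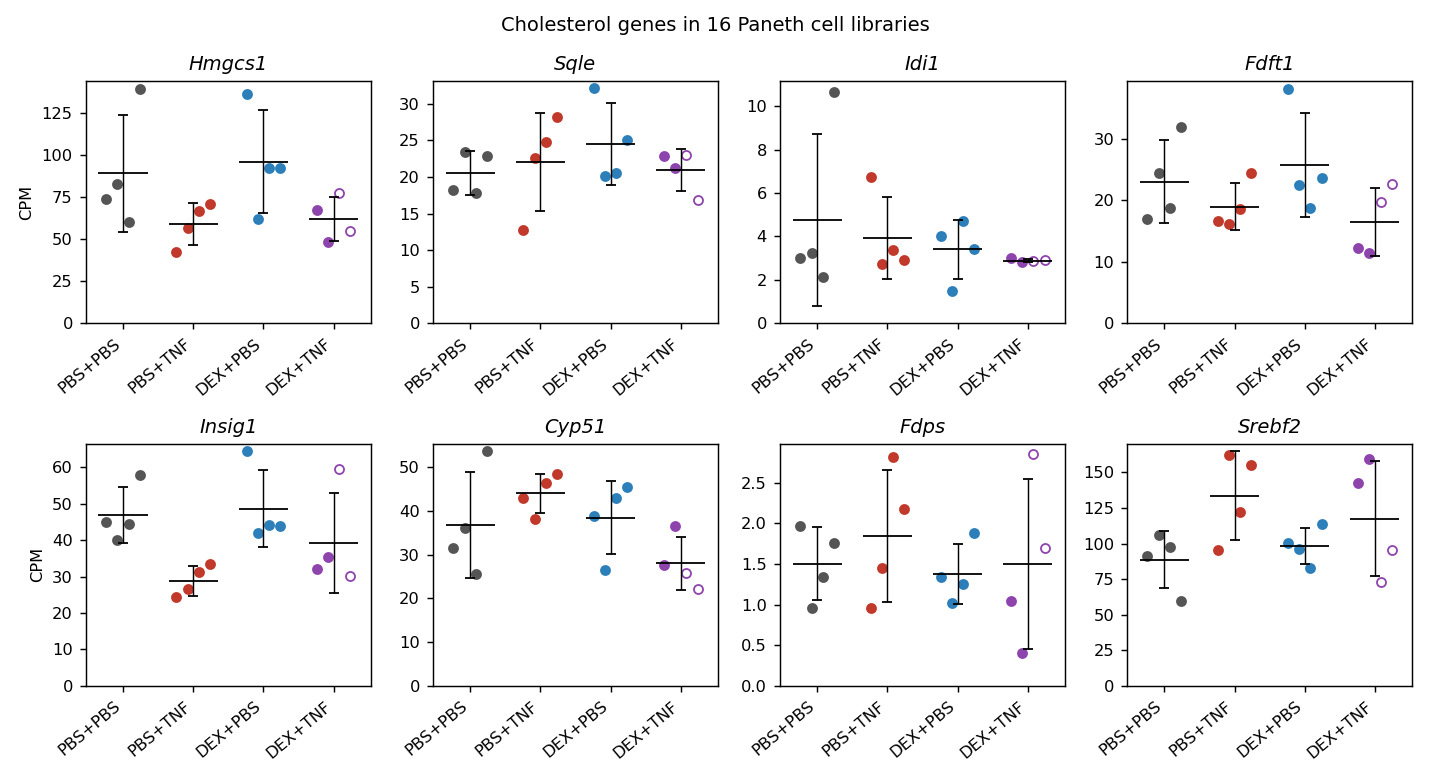
CPM of the 8 genes in each of the 16 libraries, by group and in order of replicate number, with the mean (line) and SD (bar) of each group. Open points are DEX+TNF replicates 3 and 4. PBS+TNF lies below PBS+PBS with no overlap for Insig1, and DEX+TNF lies below PBS+TNF with no overlap for Cyp51.

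**Figure D2:**
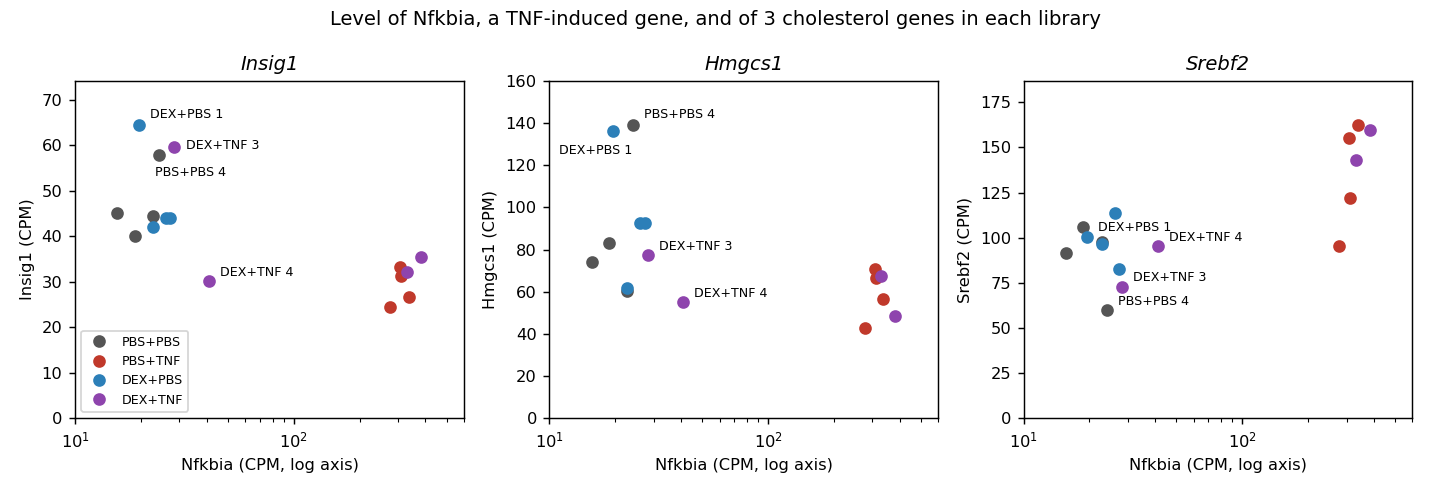
CPM of Insig1, Hmgcs1 and Srebf2 (vertical axes, from 0) against CPM of Nfkbia (horizontal log axis), 1 point per library, coloured by group. On the Nfkbia axis, DEX+TNF replicates 3 and 4 lie near but above the libraries without TNF, at 28.3 and 41.0 CPM against 15.6 to 27.3 CPM. For Insig1 only replicate 3 lies among the libraries without TNF, at 59.6 CPM.

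Cyp51, the lanosterol demethylase, was at 31.6, 36.0, 25.5 and 53.8 CPM in PBS+PBS and at 43.0, 38.2, 46.4 and 48.4 CPM in PBS+TNF. It was at 38.8, 26.6, 43.0 and 45.4 CPM in DEX+PBS and at 27.7, 36.5, 25.7 and 22.2 CPM in DEX+TNF. All DEX+TNF libraries were below all PBS+TNF libraries, and each of the other pairs of groups compared overlapped. For DEX+TNF against PBS+TNF, 40 genes were called, 0.339% of those tested, and 0 of the 8, Cyp51 having a difference of -0.65 (SE 0.24, adjusted p = 0.2729), or -0.45 (SE 0.29, adjusted p = 0.5795) without DEX+TNF replicates 3 and 4. Groups did not overlap for 6.38% of all genes in this comparison and for 1 of the 8. With all libraries, the log2 differences of the 8 ran from -0.65 for Cyp51 to 0.44 for Insig1, with 2 above 0, and without that pair the difference of Insig1 was 0.23.

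Sqle, squalene epoxidase, was at 18.2, 23.4, 17.8 and 22.9 CPM in PBS+PBS and at 12.7, 22.6, 24.7 and 28.2 CPM in PBS+TNF. It was at 32.2, 20.1, 20.6 and 25.1 CPM in DEX+PBS and at 22.8, 21.3, 23.0 and 16.8 CPM in DEX+TNF. The 4 groups overlapped throughout. Idi1, which isomerises isopentenyl diphosphate, was at 3.00, 3.26, 2.14 and 10.7 CPM in PBS+PBS and at 6.74, 2.71, 3.37 and 2.92 CPM in PBS+TNF. It was at 4.01, 1.51, 4.70 and 3.42 CPM in DEX+PBS and at 2.98, 2.83, 2.86 and 2.89 CPM in DEX+TNF. Its spread in PBS+PBS came from replicate 4. Fdps, farnesyl diphosphate synthase, which feeds both the sterol branch and protein prenylation, was at 1.97, 0.958, 1.33 and 1.76 CPM in PBS+PBS and at 0.963, 1.45, 2.81 and 2.18 CPM in PBS+TNF. It was at 1.34, 1.02, 1.26 and 1.89 CPM in DEX+PBS and at 1.05, 0.404, 2.86 and 1.70 CPM in DEX+TNF. No pair of groups was apart for Idi1 or Fdps, and none of the 3 genes had an unadjusted p under 0.05 in any comparison.

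The order of the 4 group means differed between the genes, and neighbouring groups in that order overlapped for 8 of 8. How often this holds over all genes was not counted, so nothing particular to the 8 is read from it. For Hmgcs1 the means were 95.9 ± 30.6 CPM (SD, n = 4) in DEX+PBS, 89.1 ± 34.6 in PBS+PBS, 62.0 ± 13.0 in DEX+TNF and 59.1 ± 12.6 in PBS+TNF. Insig1 had the same order, with 48.6 ± 10.6, 46.8 ± 7.71, 39.3 ± 13.7 and 28.9 ± 4.08 CPM. Srebf2 was highest in PBS+TNF at 133.7 ± 31.1 CPM, then DEX+TNF at 117.6 ± 40.4, DEX+PBS at 98.3 ± 12.9 and PBS+PBS at 88.7 ± 20.1. Cyp51 was highest in PBS+TNF at 44.0 ± 4.49 CPM and lowest in DEX+TNF at 28.0 ± 6.10.

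For DEX without TNF, 0 of the 8 genes were called. In DEX+PBS against PBS+PBS, 1 gene was called, Sgk1 (0.00847% of those tested), and the log2 differences of the 8 ran from -0.47 for Idi1, or 0.26 without PBS+PBS replicate 4, to 0.25 for Sqle. Groups did not overlap for 1.88% of all genes and for 0 of the 8. Averaged over both second injections, DEX gave 22 called genes (0.186%), 0 of the 8, with differences from -0.44 for Idi1 to 0.25 for Insig1. In neither comparison did any of the 8 have an unadjusted p under 0.05, and DESeq2 called 7 and 101 genes and 0 of the 8. With all libraries, the standard errors of the differences in these comparisons ran from 0.16 to 0.51 on the log2 scale.

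The last comparisons asked about TNF after DEX and whether DEX changed the TNF difference. DEX+TNF against DEX+PBS gave 40 called genes (0.339%) and 0 of the 8, with Hmgcs1 at -0.63 (SE 0.29, adjusted p = 0.4523) and Fdft1 as given above both having an unadjusted p under 0.05. Groups did not overlap for 4.68% of all genes and for 0 of the 8. Without DEX+TNF replicates 3 and 4, 1286 genes were called in this comparison, Fdft1 among them, and Hmgcs1 was at -0.72 (SE 0.35, adjusted p = 0.2131). The interaction of DEX and TNF gave 0 called genes (0%) by edgeR, with 642 at an unadjusted p under 0.05, and 9 by DESeq2, 0 of the 8 among them. Cyp51 had the largest interaction of the 8 in size, -0.72 (SE 0.34, adjusted p = 0.9045), and that of Insig1 was 0.39 (SE 0.33, adjusted p = 1). They were -0.52 (SE 0.37, adjusted p = 0.9723) and 0.17 (SE 0.30, adjusted p = 0.9757) without DEX+TNF replicates 3 and 4. The pairwise comparisons share control groups and are therefore not independent of each other.

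**Figure D3:**
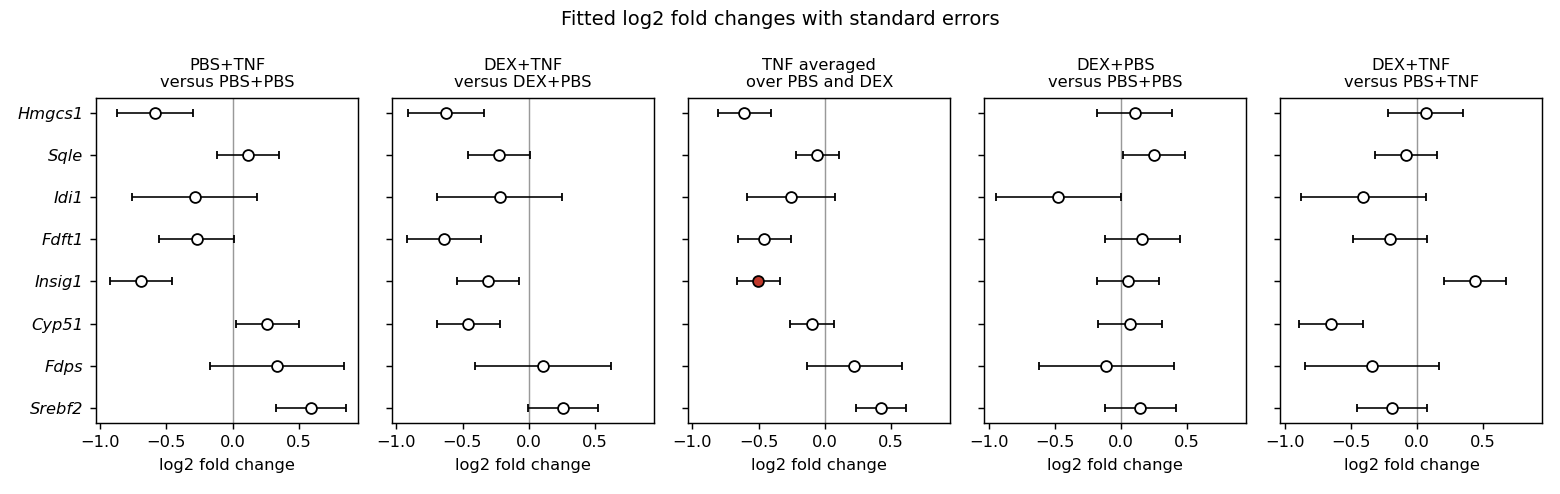
Fitted log2 fold changes of the 8 genes (points) with standard errors (bars) in 5 comparisons, 4 libraries a group. The filled point, Insig1 for TNF averaged over both first injections (-0.50), is the only one with an adjusted p under 0.05, and all 8 lie within 1 log2 unit of 0 in each comparison.

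Within groups and with all 16 libraries, most of the 8 genes deviated together from library to library. The Pearson r of each gene's deviations from its group means with the mean of the other 7, over 16 libraries that share depth and scaling across genes, was 0.94 for Hmgcs1, 0.70 for Sqle, 0.64 for Insig1, 0.52 for Fdft1, 0.50 for Cyp51, 0.31 for Fdps and 0.29 for Idi1. Srebf2 went the other way, at -0.37. Among pairs, Hmgcs1 with Sqle was at 0.74, Idi1 with Cyp51 at 0.73 and Hmgcs1 with Insig1 at 0.72. PBS+PBS replicate 4 and DEX+PBS replicate 1 had the highest mean log2 level of the 8 genes, 4.86 and 4.80 against 4.11 to 4.61 in the others. PBS+PBS replicate 4 also had a high share of Defa counts (54.5%), a low scaling factor (0.503) and the enterocyte markers given above, and DEX+PBS replicate 1 had the fewest counts (7286307). The part of these features in the levels was not tested. Without both libraries the 3 pairs were at 0.74, 0.60 and 0.59. Hmgcs1 with Fdft1 went from 0.65 to 0.42, Hmgcs1 with Idi1 from 0.54 to 0.24 and Fdft1 with Insig1 from 0.55 to 0.34. Idi1 with Sqle went from -0.05 to -0.32, while Hmgcs1 with Fdps rose from 0.51 to 0.62. Part of the shared deviation thus rested on these 2 libraries. The average TNF median of the 8 moved from -0.17 to 0.02 without them, with 0 called.

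**Figure D4:**
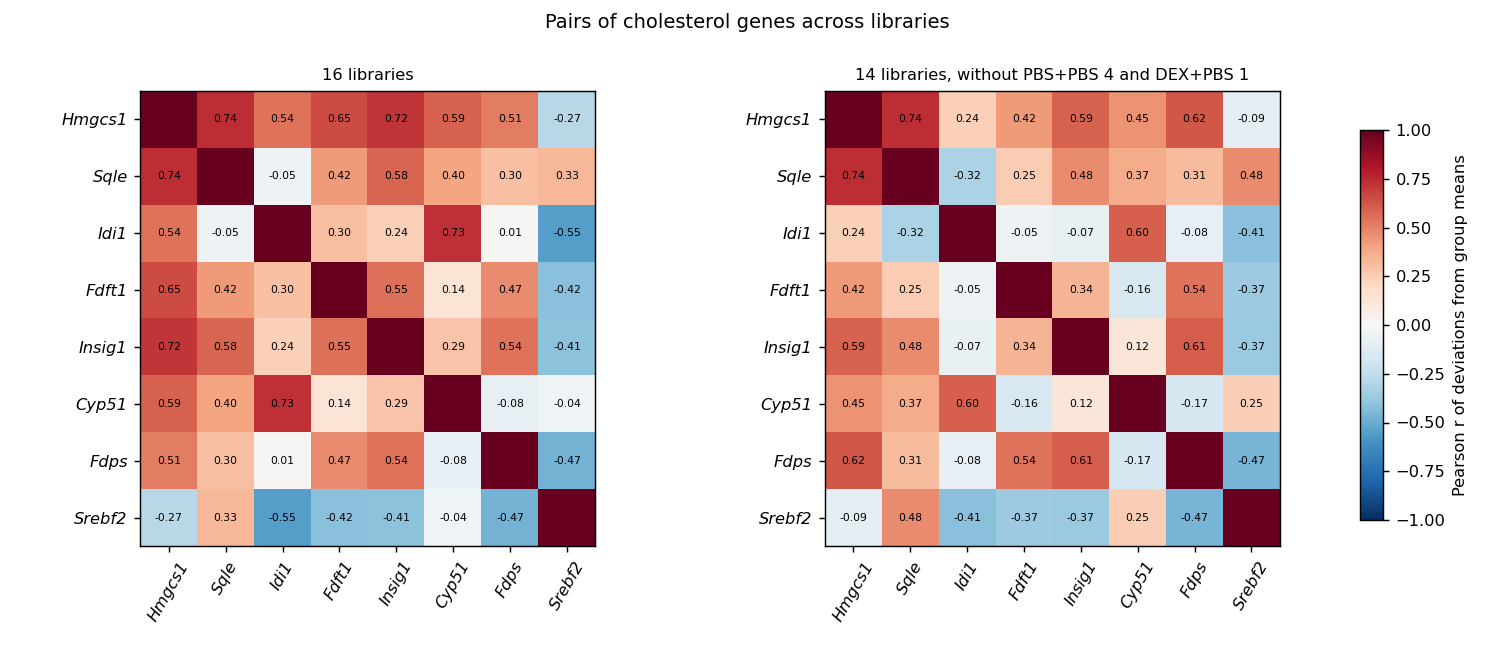
Pearson r of deviations from group means for each pair of the 8 genes, with all 16 libraries (left) and with 14, without PBS+PBS replicate 4 and DEX+PBS replicate 1 (right). Hmgcs1 and Sqle are at 0.74 in both, and Srebf2 is below 0 with all genes but Sqle on the left and all but Sqle and Cyp51 on the right.

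The 15 other enzymes of cholesterol synthesis followed the same deviations. Their median r with the mean standardised level of the 8 was 0.51, with 14 of 15 above 0, against a median of 0.03 and 6312 of 11801 above 0 for all other genes tested. Without the 2 libraries it was 0.38, with 14 of 15 above 0. The median was 0.32 for 14 genes of cholesterol uptake and transport (0.24 without the 2 libraries), 0.13 for 4 genes of esterification and oxysterol synthesis (0.19) and 0.11 for 11 genes of SREBP1-driven fatty acid synthesis (0.18). The medians of the remaining lists changed sign without the 2 libraries. They went from 0.08 to -0.08 for 7 genes of the non-sterol branches and from -0.10 to 0.08 for 9 genes of SREBP processing. For 8 genes of LXR-driven efflux and LXR receptors, the median went from -0.14 to 0.02. The single genes with the highest r were Mief2 at 0.82, C130046K22Rik at 0.81, Smbd1 and Llph at 0.80 and Ptcd2 at 0.80, none of them on a sterol list.

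Of the 68 genes tested on the 7 other lists of sterol handling, 8 were called in PBS+TNF against PBS+PBS, in both directions. That is 11.8%, near the 12.5% over all genes. Among them was 1 of the 15 other synthesis enzymes, Mvd, mevalonate diphosphate decarboxylase, which rose by 1.75 (SE 0.45, adjusted p = 0.01656). It was at 11.8 to 18.9 CPM in PBS+TNF and at 1.29 to 9.04 CPM in PBS+PBS, without overlap. Elovl6, a fatty acid elongase, was 1 of 11 SREBP1-driven genes called, and rose by 2.49 (SE 0.36, adjusted p = 0.0008401), from 5.15 to 12.3 CPM in PBS+PBS to 40.7 to 66.3 CPM in PBS+TNF. Pggt1b, a subunit of the geranylgeranyl transferase that uses a side product of the pathway, rose by 1.19 (SE 0.32, adjusted p = 0.02027) and was 1 of 7 genes of the non-sterol branches called.

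Of 14 genes of cholesterol uptake and transport, 2 were called in that comparison. Lrp8, a receptor of the LDL receptor family, rose by 2.83 (SE 0.80, adjusted p = 0.02807), though from 0 to 0.628 CPM to 1.93 to 2.62 CPM only. Vldlr, another member of that family, fell by 0.99 (SE 0.29, adjusted p = 0.03446). Abcg8, a subunit of the sterol exporter of the apical membrane, fell by 2.33 (SE 0.57, adjusted p = 0.0135). It was the 1 gene called among 8 of LXR-driven efflux and LXR receptors. Of the 4 tested genes of esterification and oxysterol synthesis, 2 were called. Soat1, which esterifies cholesterol, fell by 0.74 (SE 0.22, adjusted p = 0.03442) and Cyp27a1, a sterol hydroxylase, fell by 1.13 (SE 0.33, adjusted p = 0.03116). Cyp27a1 was higher in DEX+TNF than in PBS+TNF by 1.75 (SE 0.33, adjusted p = 0.02953), the only gene of these lists called in a DEX comparison. Of the 9 genes of SREBP processing, 0 were called. Leaving out 1 library in turn lost the call of Elovl6 and Abcg8 in 0 of 16 fits, of Mvd and Pggt1b in 2, of Vldlr, Soat1 and Cyp27a1 in 5 and of Lrp8 in 6, and each kept its direction in every alternative. The call of Cyp27a1 for DEX was lost in 6 of 16 and held in 17 of 26 alternatives in all. It was also lost without DEX+TNF replicates 3 and 4 (1.65, SE 0.38, adjusted p = 0.2436), on the 2 groups alone (adjusted p = 0.1589) and with a replicate block (adjusted p = 0.05531).

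Averaged over both first injections, 12 of the 68 genes of the other lists were called for TNF, or 17.6%, against 15% over all genes. Without DEX+TNF replicates 3 and 4, 10 of these 12 were called, and Hsd17b7 (adjusted p = 0.06322) and Stard4 (adjusted p = 0.06386) were not. In that fit 19 of the 68 were called, and 26.3% of all genes. Of the 15 synthesis enzymes, Mvd (1.32, adjusted p = 0.008408) and Sc5d (0.71, adjusted p = 0.02919), a late desaturase, were higher, and Mvk (-1.13, adjusted p = 0.02043), mevalonate kinase, and Hsd17b7 (-0.47, adjusted p = 0.03244), a sterol ketoreductase, were lower. Their list had 12 of 15 differences below 0 and a median of -0.22, against -0.01 over all genes, of which 49.2% were above 0. This lean of the list was not tested. Insig2, the relative of Insig1, was higher by 0.67 (SE 0.20, adjusted p = 0.02806), at 22.7 to 38.9 CPM in PBS+TNF and 11.8 to 22.1 CPM in PBS+PBS. In DEX+TNF it was at 30.1, 23.7, 20.7 and 10.6 CPM, the last below the 12.9 to 16.2 CPM of DEX+PBS, so that these groups overlapped. Mylip, a ligase that removes receptors of the LDL receptor family, was higher by 1.30 (adjusted p = 0.02794), Elovl6 by 1.78 (adjusted p = 0.0002492), Pggt1b by 0.93 (adjusted p = 0.008726) and Nus1, of dolichol synthesis, by 0.73 (adjusted p = 0.03047). Acly, which makes cytosolic acetyl-CoA, was lower by a log2 value of -0.50 (adjusted p = 0.02134). Stard4, a sterol carrier, and Abcg8 were also lower, at -0.49 and -1.23, and are named outside the rule after their values were seen. Leaving out 1 library in turn lost none of the calls of Elovl6, Mvd, Pggt1b and Mvk, that of Acly in 1 of 16 fits, and those of Mylip, Insig2, Nus1, Sc5d and Hsd17b7 in 6 to 9. Those of Abcg8 and Stard4 were lost in 11 and 14 of 16.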

How the data were processed

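Paneth cells were sorted from mouse small intestine, and poly(A) RNA was made into strand-marked libraries per the labels. The authors aligned reads with STAR (2.7.10a in the submitters' processing notes, which also list FastQC 0.12 and DESeq2) to GRCm39. The deposited values are raw counts of reads for each Ensembl gene in 16 libraries, without normalization. The counting tool and its settings for strand and multiple matches are not given in the sources used here. Of 55414 gene IDs, 54749 were named with GENCODE M39, and the unnamed ones held 0.00519% of counts.

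Counts were fitted with edgeR's quasi-likelihood test (4.0.16 under R 4.3.3) in 1 model of 4 groups after filterByExpr (11809 genes) and TMM scaling, with Benjamini-Hochberg adjustment over all genes tested and a threshold of 0.05. The standard error was the log2 fold change divided by the root of F. There were 7 comparisons: the 4 pairwise ones, the interaction, and TNF and DEX each averaged over the other injection. CPM used TMM-scaled totals, and levels per kb used the summed exon length. DESeq2 1.42.0 was run as an alternative. The script was tested on simulated counts with 200 changed genes. Correlations used log2 CPM with a prior count of 2. Promoters came from the GRCm39 sequence at the canonical transcript start, and transcripts were aligned with minimap2 2.31.

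The genes and lists were chosen with earlier results of these data known. The text gives CPM in every library for the 8 genes, log2 differences where called or at an unadjusted p under 0.05, at most 10 called genes of other lists per comparison by smallest p, the 5 genes most alike by r, and 5 check genes. Alternatives were other scalings, low-count filters, DESeq2, a replicate block, the 2 groups alone and leaving out libraries. Samples were grouped by the treatment label. With 4 libraries a group, p-values rest on the spread between biological replicates, and depth limits Fdps and Idi1 most. Of the lists, Ch25h and Cyp7b1 had too few counts to be tested.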

Additional observations from a re-analysis of the deposited data

Results flagged for a closer look

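Of 32 sets of 4 replicates (8 genes in 4 groups), 3 held a library far from the other 3 by Dixon's criterion, of which chance gives about 1 in 20. Idi1 was at 10.7 CPM in PBS+PBS replicate 4 and at 6.74 CPM in PBS+TNF replicate 1. Both libraries had large shares of Defa counts (54.5% and 59.3%) and the lowest scaling factors (0.503 and 0.418), and the part of these in the levels was not tested. Insig1 was at 64.4 CPM in DEX+PBS replicate 1.

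Cyp51 was above the PBS+PBS mean in all 4 PBS+TNF libraries and below the DEX+PBS mean in all 4 DEX+TNF libraries. The test of that difference, the interaction, gave -0.72 (SE 0.34) with an edgeR adjusted p of 0.9045, and the adjusted p ran from 0.4246 to 1 over its 25 alternatives.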

How the results depend on the processing

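Every log2 difference given for one of the 8 genes or for another sterol gene kept its direction under every alternative run, except that of Idi1 for DEX+PBS against PBS+PBS, which ran from -0.73 (without PBS+PBS replicate 3) to 0.26 (without PBS+PBS replicate 4) and was 0.17 without PBS+PBS replicate 4 and DEX+PBS replicate 1 together. For PBS+TNF against PBS+PBS, upper-quartile scaling, a mean of at least 5 CPM (6 of the 8 tested) and DESeq2 each called 1 of the 8 in place of 0. So did the fit on the 2 groups alone and that without DEX+TNF replicates 3 and 4. Over all genes these fits called, in that order, 1612 of 11809, 1259 of 7939, 2061 of 11809, 1367 of 11085 and 2166 of 12223. Without 1 library, 0 to 1 of the 8 and 916 to 1698 of all genes were called. For TNF averaged over both first injections, 0 of the 8 were called under median-of-ratios scaling, no low-count filter or the replicate block. The same held without PBS+PBS replicate 4 and DEX+PBS replicate 1 (chosen after seeing the data). Over all genes these fits called, in that order, 1775 of 11809, 1489 of 21543, 1746 of 11809 and 1613 of 11993. Called were 2 of the 8 under upper-quartile scaling (1879 of 11809 over all genes), at least 5 CPM (1475 of 7939) or DESeq2 (2295 of 11809). Without DEX+TNF replicates 3 and 4 (picked by their Nfkbia and Tnfaip3 levels in these data), 4 of the 8 were called, against 26.3% of all genes. Without 1 library, 0 to 2 of the 8 were called, and 1320 to 2234 of all genes. The median log2 difference of the 8 for PBS+TNF against PBS+PBS was -0.08, and 0.27 without PBS+PBS replicate 4.

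Without DEX+TNF replicates 3 and 4 the genes called were 3214 (26.3%) for TNF averaged and 1286 (10.5%, and 1 of the 8) for DEX+TNF against DEX+PBS. They were 2 for DEX+PBS against PBS+PBS, 0 for DEX+TNF against PBS+TNF and 5 for DEX averaged. DESeq2 called 274 for DEX+TNF against PBS+TNF, 259 for DEX+TNF against DEX+PBS, 7 for DEX+PBS against PBS+PBS, 9 for the interaction and 101 for DEX averaged. On the 2 groups alone, 0 were called in both DEX+TNF comparisons. DEX+TNF against DEX+PBS gave 6 with no low-count filter and 0 without PBS+PBS replicate 4 and DEX+PBS replicate 1, and DEX averaged gave 14 at 5 CPM and 8 without those 2 libraries. Leaving out 1 library gave 0 to 102 for DEX+TNF against PBS+TNF, 0 to 362 for DEX+TNF against DEX+PBS, 0 to 2 for DEX+PBS against PBS+PBS, 0 to 1 for the interaction, 1320 to 2234 for TNF averaged and 5 to 32 for DEX averaged. The cause was not tested. The labels do not tie replicate numbers to shared animals or days, the deviations of same-numbered libraries correlated at -0.37 to 0.50, and 7 of 16 libraries correlated best with their own number. With the number as a block 16 genes were called for DEX+TNF against PBS+TNF, 0 for DEX+TNF against DEX+PBS, 9 for DEX averaged and 0 of the 8 for TNF averaged. Fdps (5 to 44 counts a library) and Idi1 (25 to 85) are limited by depth.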
